A study of Mus musculus with 4 samples.

Results

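Fibrotic tissue of the mouse brain was described here as the spots of a spatial RNA array that were rich in Col1a1, the gene of the alpha-1 chain of type I collagen, at 21 days post injury (dpi). A Visium array captures messenger RNA from a tissue slice on barcoded spots of 55 µm, so that a spot can hold several cells of different types. Spots with at least 1000 unique molecular identifiers (UMIs, each standing for 1 captured RNA molecule) were used. Those with at least 5 Col1a1 UMIs per 10000 were called fibrotic, and those with 0 Col1a1 UMIs were called Col1a1-free. This gave 840 fibrotic and 1853 Col1a1-free spots, together 2693 of the 4637 spots with enough UMIs at 21 dpi and of the 9340 spots over tissue in all areas. The other spots at 21 dpi carried some Col1a1 below the threshold and entered no test. The name fibrotic rests on Col1a1 alone. Of the Col1a1-enriched spot clusters in the paper, only some were called injury-associated. Whether a fibrotic spot held scar or border tissue such as meninges was not tested.

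The study placed 10 µm brain slices on 4 capture areas with 2 slices each and 1 slice per mouse. Apart from 1 resting mouse, the mice had a photothrombotic (PT) lesion, an infarct made by light-induced clotting in cortical vessels. At 21 dpi, 1 area held 2 wild-type (WT) slices and 1 area held 2 slices of Cthrc1(creER); R26(DTA) mice, here called deleter mice. In these mice a drug-inducible Cre recombinase is driven from Cthrc1, a gene of injury-activated fibroblasts, and switches on diphtheria toxin A from the Rosa26 locus. The submitters set the deleter slices aside because no deletion was seen, so they are treated here as injured slices of another genotype on another area. Age, sex and any treatment beyond the injury are not given in the labels. A WT area at 7 dpi with 2 slices serves as a comparison. Each capture area is 1 sample of the series, and its slices were told apart as connected pieces of tissue. In the text, 4 values in a row are those of WT slice 1, WT slice 2, deleter slice 1 and deleter slice 2, and levels are UMIs per 10000 of the summed spots of a class.

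The fibrotic class held 170, 203, 193 and 274 spots, which was 13%, 24.6%, 21.2% and 17.2% of the spots with at least 1000 UMIs. Their exact binomial 95% intervals, which cover counting error only, ran from 11.2% to 14.9% in WT slice 1 and from 21.7% to 27.7% in WT slice 2. The Col1a1-free class held 609, 282, 312 and 650 spots. Fibrotic sums reached 2236828 to 3629513 UMIs and Col1a1-free sums 3302209 to 9561488, with median UMIs per spot of 10828 to 13879 and 11064 to 13758.5. The classes were chosen on Col1a1, which was 21.3, 41.5, 32.4 and 38.2 per 10000 in the fibrotic sums, and this is a description without a test. The lowest values inside the threshold were 5.02 to 5.09 per 10000 and the highest outside 4.84 to 4.99, with 17 to 23 spots per slice between 5 and 6. Between 55.9% and 91.1% of fibrotic spots per slice lay in the largest connected patch, and the others in smaller groups. The outermost 2 rings of spots held 53.5%, 39.9%, 51.8% and 39.8% of fibrotic spots and 20.7%, 37.6%, 31.4% and 19.7% of Col1a1-free spots, so the classes also differed in position. With ring 3 or deeper alone, 4535 genes were higher and 4369 lower in the main comparison.

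**Figure D1:**
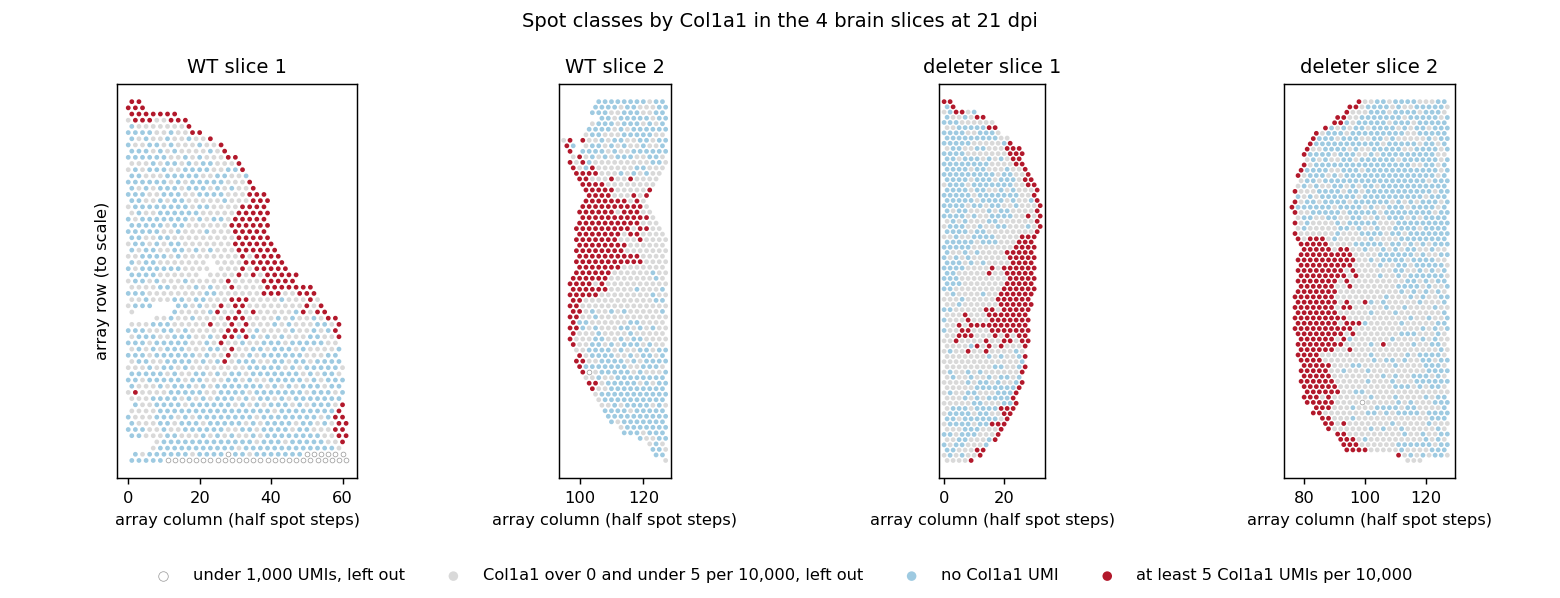
Position of each spot class in the 4 slices at 21 dpi; array columns and rows are drawn to scale, and each point is 1 spot, coloured by its Col1a1 level. In each slice the 170 to 274 fibrotic spots form 1 main patch of 95 to 232 spots and smaller groups, many of them along the outer edge.

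A scar in the brain is built by fibroblasts that spread from the meninges and from vessel walls and lay down fibrillar collagen, proteoglycans and fibronectin. Macrophages and lymphocytes gather in this tissue, and reactive astrocytes form a border towards the surviving nervous tissue. Myofibroblasts are contractile, matrix-producing fibroblasts, and Cthrc1 (chr15:39076932-39087121 on GRCm38.p6) and Lrrc15 are among their markers. Col1a1 lies at chr11:94936224-94953042.

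The gene that drives the Cre in the deleter mice, Cthrc1, was looked at first. Cthrc1 was at 0.219, 0.175, 0.101 and 0.132 per 10000 in fibrotic spots and 0.118, 0.121, 0.0627 and 0.0858 in Col1a1-free spots. It was present in both genotypes at a low level, and in each class both deleter values lay below both WT values. Its fibrotic change was 0.72 ± 0.16 (log2, SE, 4 slices; edgeR adjusted p = 0.0030), the smallest of the 5 myofibroblast markers. The call was lost with Col1a1-free spots limited to those within 5 spot steps of a fibrotic spot (0.43, adjusted p = 0.095) and with spots in ring 3 or deeper (0.47, adjusted p = 0.095). The WT and deleter changes of Cthrc1 differed by 0.14 ± 0.33, which did not pass the test (edgeR adjusted p = 0.99). That test compares changes within slices, so a lower level in both classes would not show in it. The level itself was not tested between genotypes. Deleter slice 1 stood apart in sex-linked genes, as it carried Xist, the X-inactivation RNA, at 1.16 and 0.673 per 10000 in its classes and Ddx3y, a Y-linked gene, at 0.0156 at most, while the other slices at 21 dpi had Ddx3y at 0.474 to 0.979. Gm42418, a transcript that overlaps ribosomal RNA, was at 145 in Col1a1-free spots of deleter slice 1 and at 37.6 to 61.7 in those of the other slices. Xist, Ddx3y and Gm42418 were chosen after their values were seen.

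Fibrotic spots differed from Col1a1-free spots of the same slice in most genes that could be tested. Summed per slice and tested in edgeR with the slice as a block, 4931 of 13978 genes (35.3%) were higher and 4746 (34.0%) lower at an adjusted p under 0.05. Because so many genes passed, a fold limit was added: 3030 genes (21.7%) were at least 2-fold higher and 2323 (16.6%) at least 2-fold lower. In 2921 and 2218 of these the 4 fibrotic values did not overlap the 4 Col1a1-free values, and without the fold limit this held for 4397 and 4278 genes. Such genes were chosen for a change in the same sums, so little overlap was built in and is no separate support. Col1a1 chose the spots, so these numbers describe what accompanies Col1a1 in the tissue, and fewer cells of a type in a spot and less RNA per cell cannot be told apart in such sums. When each spot was thinned to 1000 UMIs, which left 6994 testable genes, 1728 genes were higher and 1714 lower.

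The collagen and matrix genes were among the largest increases. Col3a1, the chain of type III collagen, was at 18.4, 26.7, 24.0 and 25.6 per 10000 in fibrotic spots and at 0.238, 0.242, 0.195 and 0.226 in Col1a1-free spots. Every fibrotic value lay far above every Col1a1-free value, a change of 6.72 ± 0.14 (log2, SE; adjusted p = 3.4e-09). Col1a2, whose chain joins that of Col1a1 in type I collagen, rose by 6.58 ± 0.17, from 0.318, 0.357, 0.514 and 0.469 to 21.0, 31.8, 53.3 and 60.0. All 6 fibrillar collagens on the list passed in the higher direction with a median of 4.45, and so did 8 of 9 other collagens with a median of 4.79 over the list. The exception was Col24a1, lower by 1.85 ± 0.58 (adjusted p = 0.018), a call that was lost without deleter slice 1. The median of all tested genes was 0.0054.

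Genes that process and organise the fibrils moved with them. All 17 enzymes and chaperones of collagen assembly were higher with a median of 3.06. Lox, which cross-links collagen and elastin, was at 0.885, 0.887, 0.876 and 1.08 in fibrotic spots and at 0.00908 to 0.0193 in Col1a1-free spots, a change of 6.03 ± 0.18. Of 10 small leucine-rich proteoglycans, which bind collagen fibrils, 9 were tested and all 9 were higher, with a median of 4.93. Among them lumican (Lum) was at 6.14, 4.80, 7.22 and 6.18 against 0.0362 to 0.108, epiphycan (Epyc) rose by 6.85 ± 0.31 and decorin (Dcn) by 5.96 ± 0.19. All 14 genes of the basement membrane (median 3.17), all 16 of elastic fibres (4.35) and all 12 matricellular genes (4.53) were higher as well.

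The myofibroblast markers were all higher, but unequally. Fibronectin (Fn1) was at 7.53, 7.31, 8.72 and 8.07 in fibrotic spots against 0.278 to 0.380, a change of 4.65 ± 0.12. Periostin (Postn), a secreted matrix protein, rose by 4.56 ± 0.20, and Acta2, smooth muscle actin, by 2.68 ± 0.13. Lrrc15 had 38 UMIs in all fibrotic sums and 3 in all Col1a1-free sums, a ratio per UMI of 27.6 (exact 95% interval 8.75 to 140). Cthrc1 alone of these 5 stayed under a 2-fold change.

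Matrix-degrading enzymes were prominent, and 3 of them lie near each other on chromosome 9. Mmp13, a collagenase (chr9:7272514-7283333), was at 1.47, 2.61, 2.13 and 1.66 in fibrotic spots and at 0.0145, 0.00606, 0.00723 and 0.0105 in Col1a1-free spots. Mmp12, the macrophage elastase (chr9:7344397-7360461), was at 5.81, 1.80, 4.22 and 2.23 against 0.0265 to 0.0555. Mmp3, stromelysin (chr9:7445822-7455975), was at 1.80, 1.15, 1.60 and 1.15 against 0.0136 to 0.0290. The groups did not overlap in any of the 3 genes, and their changes were 7.43 ± 0.20, 6.56 ± 0.19 and 6.15 ± 0.13 (adjusted p of 9.4e-09 at most). The 80 bases before a RefSeq start of each gene on GRCm38.p6, plus strand, are shown because these nearby genes all rose. Shared control of the 3 genes was not tested. Capitals mark TGANTCA, the letters of the AP-1 motif.
Mmp13, chr9:7272434-7272513: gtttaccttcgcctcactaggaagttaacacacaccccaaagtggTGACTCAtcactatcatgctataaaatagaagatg
Mmp12, chr9:7347294-7347373: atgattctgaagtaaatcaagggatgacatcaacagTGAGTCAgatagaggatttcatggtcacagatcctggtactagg
Mmp3, chr9:7445742-7445821: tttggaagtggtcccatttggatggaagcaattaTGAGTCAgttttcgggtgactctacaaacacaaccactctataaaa
The motif began 35, 44 and 46 bases before the start in Mmp13, Mmp12 and Mmp3. The Mmp12 stretch belongs to the second of its starts in the table, and the 80 bases before the other start did not hold the letters. TGANTCA occurred on either strand in 2565 of 32851 promoters of 300 bases (7.81%), and a match is a description of letters, not of binding.

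Inhibitors of these enzymes split. Timp1 was at 1.55 to 2.01 in fibrotic spots and at 0.0512 to 0.0805 in Col1a1-free spots (4.91 ± 0.12), and 11 of the 12 listed proteases and inhibitors were higher, with a median of 4.6. Timp4 was 0.286, 0.263, 0.222 and 0.270 in fibrotic spots and 0.334, 0.288, 0.340 and 0.361 in Col1a1-free spots, a change of -0.32 ± 0.13 (adjusted p = 0.048) that was lost under DESeq2 and without any of 3 slices (WT slice 1, deleter slice 1 or deleter slice 2).

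Meningeal and growth factor genes rose together with the matrix. All 15 meningeal fibroblast genes were higher with a median of 3.98. Foxc2, a transcription factor of mesenchymal cells, was at 0.483, 0.315, 0.522 and 0.590 against 0.00209 to 0.0158, and Ptgds, prostaglandin D synthase, rose by 2.72 ± 0.20. Of the 11 genes of the insulin-like growth factor axis 10 were higher. The ligand Igf1 was at 3.88, 5.35, 3.83 and 4.31 against 0.0784 to 0.133 (5.32 ± 0.17), Igf2 rose by 3.38 ± 0.20 and the binding protein Igfbp5 by 3.71 ± 0.12. The receptor gene Igf1r went the other way, at -0.34 ± 0.12 (adjusted p = 0.028), a call that was lost without WT slice 2 or without deleter slice 1.

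In the TGFβ pathway, which drives fibroblast activation, 8 of 13 genes were higher and none lower. Tgfb1 was at 0.438, 0.456, 0.366 and 0.394 against 0.0212 to 0.0423 (3.57 ± 0.18) and the receptor Tgfbr2 rose by 3.28 ± 0.10. All 6 PDGF ligands and receptors were higher with a median of 1.91, among them Pdgfra, a receptor of fibroblasts and oligodendrocyte precursors, at 2.00 ± 0.12. Secreted Wnt modulators split, with 5 of 7 higher and 1 lower. Sfrp4 rose by 6.24 ± 0.12, while Dkk3, also made by neurons, was lower by 0.84 ± 0.11. Of the markers of a late inner fibroblast state, Sema3c was higher by 0.76 ± 0.14 and Fgf13, which neurons also express, was lower by 1.48 ± 0.11, with 0.273 to 0.474 against 0.908 to 1.17. Cdh18 had too few UMIs to be tested.

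**Figure D2:**
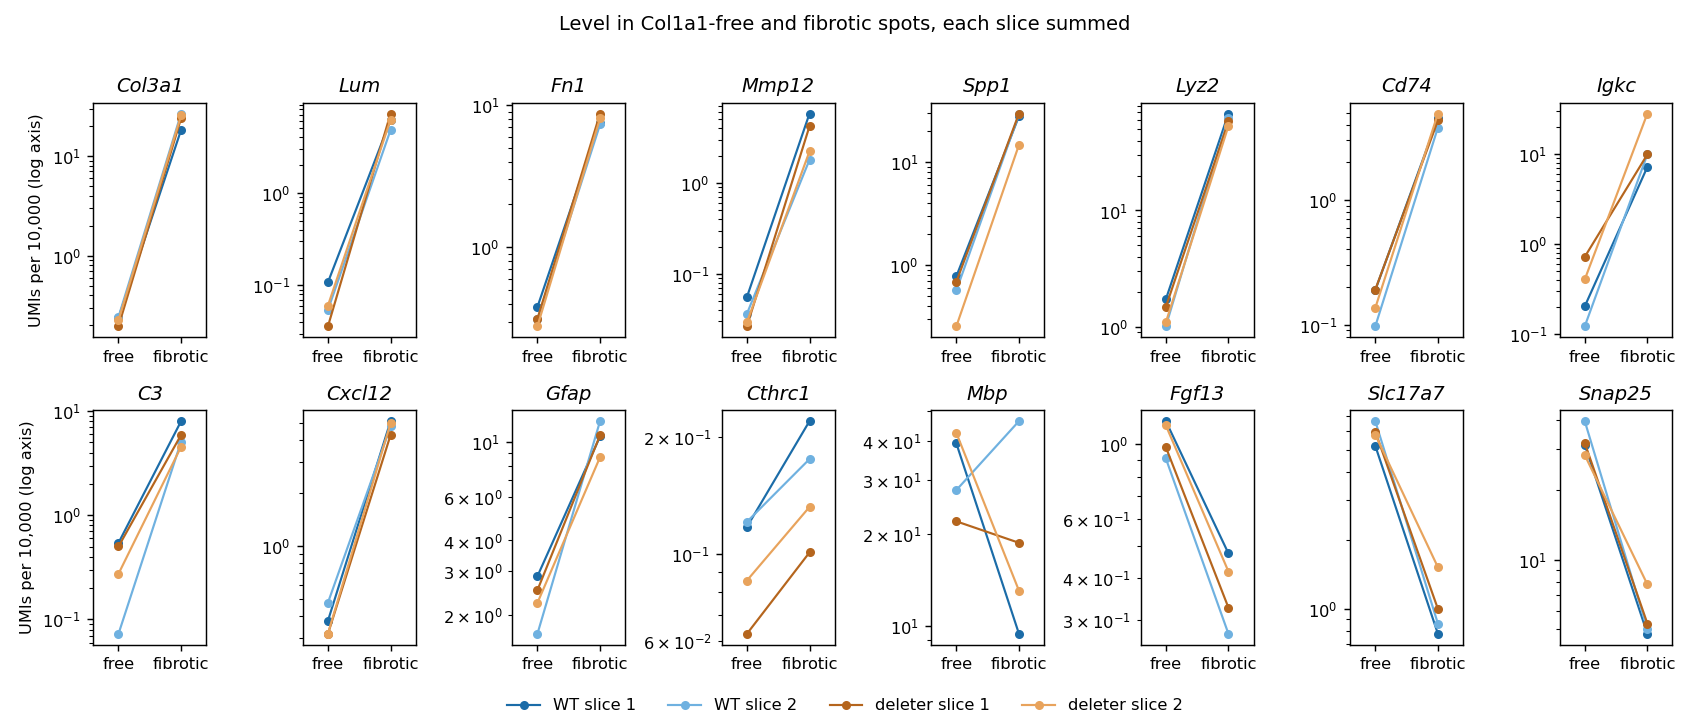
UMIs per 10000 of 16 genes in the summed Col1a1-free and fibrotic spots of each slice, with 1 line per slice and a log axis scaled to each gene. The lines of Col3a1 (0.195 to 0.242 against 18.4 to 26.7) are steep and parallel, those of Cthrc1 span less than a 2-fold change, and those of Mbp point both ways.

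Myeloid genes formed the other large block. All 18 macrophage genes were higher with a median of 3.46. Lysozyme 2 (Lyz2) was at 68.4, 63.1, 58.6 and 53.5 in fibrotic spots and at 1.71, 1.01, 1.47 and 1.09 in Col1a1-free spots, a change of 5.57 ± 0.15. All 6 genes of scar-associated macrophages were higher, including osteopontin (Spp1) at 5.55 ± 0.14 and Gpnmb, a lysosomal glycoprotein, at 5.58 ± 0.10. Spp1 in deleter slice 2 was 14.7 against 28.0 to 29.7 in the other slices. The 8 genes of border-associated macrophages, which normally live in the meninges, were higher too with a median of 4.03, among them the mannose receptor Mrc1 at 4.30 ± 0.18.

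Microglial genes rose less. Of 7 homeostatic microglia genes 6 were higher, with a median of 1.5. Tmem119 was at 0.763 to 0.964 against 0.176 to 0.243 (1.99 ± 0.12). P2ry12, a purine receptor, was at 0.380, 0.540, 0.397 and 0.435 against 0.345, 0.439, 0.357 and 0.315, a change of 0.30 ± 0.11 (adjusted p = 0.033) that was lost without WT slice 1, WT slice 2 or deleter slice 2, and turned to -0.18 with a threshold of 10 Col1a1 UMIs per 10000.

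Antigen presentation and complement genes were higher throughout. All 7 MHC class II genes passed with a median of 4.67, and Cd74, the invariant chain, was at 4.49, 3.80, 4.32 and 4.92 against 0.0969 to 0.190. All 13 complement genes were higher with a median of 4.22. The central component C3 was at 8.02, 5.10, 5.92 and 4.56 against 0.543, 0.0727, 0.501 and 0.274. All 10 interferon-stimulated genes were higher with a median of 2.78. Among chemokines and cytokines 19 of 21 tested genes were higher and none lower, with Cxcl12, a ligand that retains lymphocytes and plasma cells, at 4.27 to 5.12 against 0.316 to 0.475 (3.74 ± 0.12), Ccl19 at 3.48 ± 0.18, Cxcl9 at 5.97 ± 0.36 and the alarmin Il33 at 1.02 ± 0.17.

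Antibody genes had high levels that varied between animals. Of 17 plasma cell genes 14 were tested and 13 were higher, with a median of 5.04. That share is partly built in, since sparse genes could pass the filter through the fibrotic sums alone. The kappa light chain Igkc was at 7.22, 9.97, 9.95 and 28.4 in fibrotic spots and at 0.202, 0.121, 0.718 and 0.403 in Col1a1-free spots, a change of 5.33 ± 0.41. Deleter slice 2 was highest, and the classes did not overlap. The 10% of fibrotic spots with most Igkc held 85.8%, 85.9%, 80.4% and 74.2% of its UMIs, against 39.0% to 52.1% for Col3a1. Jchain, which joins secreted antibody, followed the same order (1.64, 2.34, 2.33 and 6.50; 5.73 ± 0.41). The light chain gene Iglc2 had 186 UMIs in fibrotic and 2 in Col1a1-free sums, a ratio of 203 (55.3 to 1685). Ighm, the IgM heavy chain, was at 0.30, 0.750, 0.444 and 0.446 against 0.489, 0.905, 0.451 and 0.367, and its change of -0.14 ± 0.14 did not pass. Against only those Col1a1-free spots within 5 steps, Ighm was higher by 0.82.

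T cell and neutrophil genes were sparse. Of 18 T cell genes 12 were tested, 10 higher and 1 lower. Cd3d had 89 UMIs over all fibrotic sums and 11 over all Col1a1-free sums (4.11 ± 0.44), and the interleukin-7 receptor Il7r had 378 and 13 (5.99 ± 0.22). Trbc2, a T cell receptor constant gene, was lower by 1.19 ± 0.16, with 0.143 to 0.269 in fibrotic and 0.309 to 0.651 in Col1a1-free spots. In the same Col1a1-free sums Cd3d was at 0.00964 at most. Trbc2 there is thus no measure of T cells, and its source was not tested. All 6 tested neutrophil genes were higher, but Camp, a granule peptide, had 160 UMIs in fibrotic spots of 3 slices and 0 in those of deleter slice 1. The listed genes Camp, Ltf and Ngp had 1, 2 and 3 UMIs in all Col1a1-free sums. Genes this sparse passed the filter through their fibrotic sums. The share of tested T cell and neutrophil genes that were higher is therefore partly built in.

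Of the 4 B cell genes 2 were tested and both were higher, with the same limit. Cell cycle genes were higher in 8 of 9 (median 1.57), Mki67 with only 107 UMIs in the fibrotic sums.

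All 12 reactive astrocyte genes were higher with a median of 3.30. The intermediate filament Gfap was at 10.6, 12.2, 10.7 and 8.70 in fibrotic spots and at 2.87, 1.67, 2.52 and 2.24 in Col1a1-free spots (2.21 ± 0.16). Lcn2, lipocalin 2, was at 5.73 to 9.41 against 0.164 to 0.940 (3.82 ± 0.32). Of 10 other astrocyte genes 4 were higher and 3 lower, near the 35.3% and 34.0% of all tested genes. The water channel Aqp4 was higher by 1.79 ± 0.13 and the glutamate transporter Slc1a2 lower by 1.08 ± 0.11.

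None of the 10 oligodendrocyte genes passed in either direction, with a median of -0.62. Mbp, myelin basic protein, was at 9.44, 46.5, 18.7 and 13 in fibrotic and 39.3, 27.7, 21.9 and 42.5 in Col1a1-free spots. It was lower in 3 slices and higher in WT slice 2, at -0.80 ± 0.39 in all (adjusted p = 0.095). Without WT slice 2 the change was -1.33 and passed (adjusted p = 0.0015), and with a threshold of 10 Col1a1 UMIs per 10000 it was -1.99 (adjusted p = 0.00011). It also passed with Col3a1 in place of Col1a1 (-1.15), with no filter (-0.81) and when thinned (-0.82). Of 8 oligodendrocyte precursor genes 4 were higher and 1 lower, beside 35.3% and 34.0% of all tested genes. So short a list is not set apart by these counts.

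Neuronal genes were lower throughout. All 10 excitatory neuron genes, all 8 inhibitory neuron genes and all 14 synapse and axon genes were lower, with medians of -2.21, -2.10 and -2.33. Snap25, a synaptic fusion protein, was at 4.77, 5.0, 5.29 and 7.81 in fibrotic spots and at 31.3, 39.6, 31.9 and 28.3 in Col1a1-free spots, a change of -2.51 ± 0.17. The vesicular glutamate transporter Slc17a7 fell by 2.52 on the log2 scale (SE 0.16) and Gad1, which makes GABA, by 2.44 (SE 0.11). Neuronal RNA was lower but still present in the fibrotic sums. Of 7 immediate early genes 6 were lower with a median of -1.72.

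Vessel genes were moderately higher. Of 13 endothelial genes 12 were higher with a median of 1.28 and 1 lower. Claudin 5 (Cldn5), a barrier junction protein, was higher by 1.00 ± 0.17 and Plvap, a protein of leaky endothelium, by 1.57 ± 0.12. Of 11 mural cell genes 10 were higher. Of 4 tested haemoglobin genes 2 were lower, beside 34.0% of all tested genes, with a median of -0.55. Hba-a1 ranged from 0.132 to 1.5 in fibrotic and from 0.168 to 2.57 in Col1a1-free spots, so that its groups overlapped. Of 7 tested genes of iron handling 5 were higher and 1 lower, with haem oxygenase (Hmox1) higher by 3.70 ± 0.15 and the transferrin receptor (Tfrc) lower by 1.16 ± 0.12. All 12 mitochondrial messenger RNAs were lower with a median of -0.79. Of 7 choroid plexus and ependymal genes only Foxj1 passed, at 0.96 ± 0.26, and it was at -0.051 with a threshold of 10 Col1a1 UMIs per 10000.

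By size alone, the 12 largest increases with at least 100 UMIs were Col10a1, Mmp13, Iglc2, Clec4d, Epyc, Pira2, Col3a1, Cyp2f2, Col1a2, Slamf7, Mmp12 and Lum. Clec4d, a lectin receptor of myeloid cells, was at 0.266 to 0.528 against 0.00723 at most (6.85 ± 0.30), and Cyp2f2, a cytochrome P450, at 0.165 to 0.502 against 0.00418 at most (6.64 ± 0.29). Pira2, an immunoglobulin-like receptor of myeloid cells, had 167 fibrotic UMIs and 3 Col1a1-free UMIs, a ratio of 121 (40.8 to 594). Slamf7, a surface receptor of plasma cells and other leukocytes, had 153 and 3, a ratio of 111 (37.3 to 545). Col10a1, a collagen best known from hypertrophic cartilage, had 271 and 1, a ratio of 590 (105 to 23396), and was uneven between slices at 0.00894, 0.102, 0.638 and 0.209 per 10000.

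The 12 largest decreases, mostly at low counts, included genes of particular neurons. Ntsr1, the neurotensin receptor of deep-layer cortical neurons, was at 0.0377 to 0.0482 in Col1a1-free spots and at 0.00447 or less in fibrotic spots (-3.85 ± 0.55). The changes were -3.45 ± 0.45 for its ligand gene Nts, -3.44 ± 0.51 for the relaxin receptor Rxfp1, -3.43 ± 0.43 for the kappa opioid receptor Oprk1 and -3.35 ± 0.48 for neurotrophin-3 (Ntf3). Slit1, an axon guidance gene, was at 0.00894, 0.0175, 0.0234 and 0.0441 against 0.108 to 0.323 (-3.13 ± 0.30). Tnnt2, Serpina9, Akain1, Gm14004, Myadml2 and A530058N18Rik completed the set, between -3.65 and -3.16. With a threshold of 2 Col1a1 UMIs per 10000, Nts (-1.26, edgeR adjusted p = 0.051) and Serpina9 (-1.50, adjusted p = 0.056) lost the call.

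The genotypes were then taken apart. In WT slices 4063 genes (29.1%) were higher and 3846 (27.5%) lower, and in deleter slices 4018 (28.7%) were higher and 3704 (26.5%) lower. Of the 3030 genes at least 2-fold higher over all slices, 2829 were called higher in WT and 2848 in deleter slices. Of the 2323 at least 2-fold lower, 2154 and 2127 were called lower. Both sets were chosen over these same slices, so high counts in each genotype were built in and are no separate support. Without deleter slice 1 the deleter count of lower genes was 2301, and DESeq2 gave 2469. Col3a1 changed by 6.57 ± 0.18 in WT and 6.87 ± 0.18 in deleter slices, and Slc17a7 by -2.79 ± 0.20 and -2.26 ± 0.19.

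The difference of the fibrotic change between genotypes passed for 0 of 13978 genes in edgeR (0%), with 541 genes at an unadjusted p under 0.05 and 1 gene called by DESeq2. How large a difference this test could find with 2 slices per genotype was not simulated. The absence of calls therefore does not show that the genotypes were alike. List medians in WT and deleter slices were 4.45 and 4.62 for fibrillar collagens, 4.63 and 5.31 for small proteoglycans, 3.41 and 4.30 for meningeal genes, 3.65 and 3.30 for macrophages and -2.52 and -2.16 for synapse and axon genes. Cell cycle genes were called higher in 8 of 9 in WT (median 2.01) and 3 of 9 in deleter slices (0.72). Haemoglobin genes were called lower in 0 of 4 (median -0.11) and 4 of 4 (-1.12). For none of these genes did the difference itself pass the test.

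Esr1, the oestrogen receptor alpha gene, which was chosen after its values were seen, was split by genotype. It was at 1.04 and 1.46 per 10000 in fibrotic spots of the WT slices and at 0.0701 and 0.0303 in those of the deleter slices, while Col1a1-free spots were at 0.0217 to 0.0485 in all 4. The WT change was 5.29 ± 0.28 (adjusted p = 7.3e-06) and the deleter change 0.80 ± 0.42 (adjusted p = 0.14). Their difference of 4.49 ± 0.52 did not pass in edgeR (adjusted p = 0.48) and was the gene that DESeq2 called (adjusted p = 2.9e-07). With a threshold of 10 Col1a1 UMIs per 10000 it passed in edgeR as well (4.70, adjusted p = 0.040), as it did with no filter on low counts (adjusted p = 5.4e-10). A creER transgene carries a stretch of oestrogen receptor sequence, and whether its RNA could be counted as Esr1 was not tested. The labels name creER for the deleter mice and give the WT mice as WT only, so whether those carried another allele is not known from them. In the slices at 7 dpi Esr1 was at 0.413 and 0.642 in fibrotic and 0.0253 and 0.0205 in Col1a1-free spots. Ighg2c, an IgG heavy chain, leaned the other way, at 0.152 and 0.0210 in WT and 0.923 and 0.493 in deleter fibrotic spots, and its difference did not pass (adjusted p = 0.98). Genotype, capture area and animal cannot be told apart here.

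Fibrotic spots were not uniform, and position within the tissue was a measure that the choice of spots had not used. Fibrotic spots in the outermost 2 rings (edge: 91, 81, 100 and 109 spots) were compared with those in ring 3 or deeper (interior: 79, 122, 93 and 165 spots). The edge sums were smaller, at 914630, 731015, 1019491 and 1053311 UMIs against 1322198, 2122450, 1549517 and 2576202. Of 11835 genes tested, 973 (8.22%) were higher and 866 (7.32%) lower in the interior. Most tested genes of the reactive astrocyte, oligodendrocyte, macrophage and complement lists were higher in interior spots, and edge spots had more RNA of vessel walls, border macrophages, blood and several matrix genes. DESeq2 called 385 and 371, and without WT slice 1 edgeR called 565 and 563. Without deleter slice 2 it called 637 and 631.

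Reactive astrocyte genes were higher in the interior in 11 of 12, with a median of 0.93. Of the 9 tested genes of the other astrocyte list 2 were higher and 3 lower (median -0.22). Lcn2 was at 14.8, 8.76, 11.1 and 7.68 in interior and 1.63, 1.38, 1.63 and 0.949 in edge spots (2.95 ± 0.12, adjusted p = 6.5e-10), and C3 at 6.20 to 12.1 against 0.532 to 2.15 (2.71 ± 0.16). Neither gene overlapped between edge and interior. The 5 largest increases were Saa3, an acute-phase protein (3.46 ± 0.22), Kng2, Tgm1, Chil1, a chitinase-like protein (3.03 ± 0.18), and Apoc4. Of 18 macrophage genes 15 were higher in the interior (median 0.93), as were 5 of 6 scar-associated macrophage genes and 9 of 13 complement genes. Apoe, a lipid carrier of astrocytes and macrophages, was at 333 to 356 against 105 to 154.

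All 10 oligodendrocyte genes were higher in the interior with a median of 1.39. Mbp was at 11.2, 52.0, 27.3 and 15.6 against 6.89, 30.6, 5.51 and 6.67 (1.27 ± 0.19), higher in each slice although the slices overlapped. Chemokines and cytokines were higher in 10 of 19 and lower in 1. Ccl2, which attracts monocytes, was at 0.188 to 0.278 against 0.0380 to 0.0821, and Cxcl9 at 0.225 to 0.645 against 0.0285 to 0.147. Mmp3 was also an interior gene (2.20 ± 0.24). Of 10 tested plasma cell genes 5 were higher and 1 lower, with Igkc at 9.38, 12.8, 12.0 and 35.8 against 4.10, 1.72, 6.88 and 10.2 (1.67 ± 0.22).

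Several matrix genes were higher at the edge. Fibrillar collagens were lower in the interior in 4 of 6, other collagens in 8 of 8 and small proteoglycans in 8 of 9, with medians of -0.59, -1.0 and -0.93. Col1a2 was at 13.9, 24.4, 40.1 and 54.4 in the interior against 31.2, 53.2, 73.3 and 73.8 (-0.86 ± 0.12), and Ogn, osteoglycin, at 1.10 to 1.4 against 3.85 to 5.66. The decrease was not shared by all matrix genes, since Dcn (0.21 ± 0.12, adjusted p = 0.26) and Col3a1 (-0.30 ± 0.14, adjusted p = 0.19) did not pass. Meningeal genes were lower in 10 of 15 and higher in 1, and Igf2 fell by 1.22 (SE 0.11).

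The largest edge genes included products of bone, cartilage and vessel wall. Whether these came from scar or from other tissue at the border was not tested. Bglap, osteocalcin of bone-forming cells, was at 0.820, 0.219, 0.991 and 0.968 at the edge and at 0.0194 or less in the interior (-5.97 ± 0.27). Bglap2, the Wnt modulator Sfrp2 and the cartilage matrix genes Comp and Chad completed the 5 largest, between -5.87 and -3.26. Acta2 was at 0.814 to 1.54 against 0.103 to 0.272 and Myh11, smooth muscle myosin, fell by 3.01 (SE 0.31). Endothelial genes were lower in 8 of 13 and mural genes in 5 of 10. Border macrophage genes were lower in 5 of 7 with a median of -1.89, Mrc1 at 0.991 to 1.59 against 0.264 to 0.416. With spots thinned to 1000 UMIs Mrc1 was at -1.43 and lost the call (edgeR adjusted p = 0.055). All 4 haemoglobin genes (median -2.51) and all 12 mitochondrial messenger RNAs (-0.82) were lower in the interior, and the part of blood and RNA quality in these results was not tested.

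**Figure D3:**
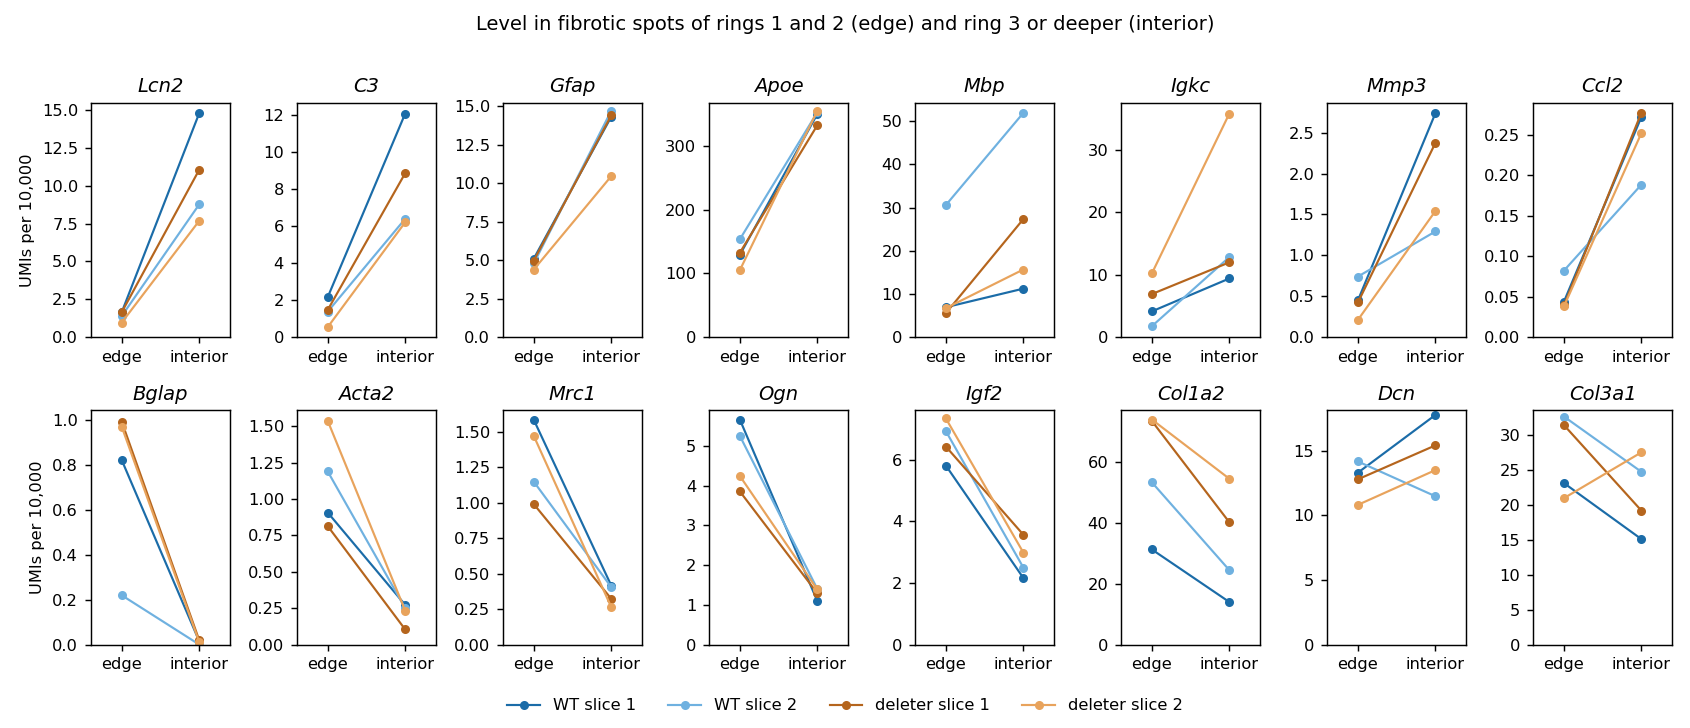
UMIs per 10000 of 16 genes in fibrotic spots of the outermost 2 rings (edge) and of ring 3 or deeper (interior), with 1 line per slice and axes from 0. Lcn2, C3 and Gfap rise inwards in each slice, Bglap, Acta2 and Mrc1 fall to a fraction of the edge level, and Dcn and Col3a1 cross without a common direction.

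Within the fibrotic class the amount of Col1a1 also sorted other genes. This is given as a description with no test, since Col1a1 chose the spots. Spots were grouped into those with no Col1a1, over 0 and under 5, 5 to under 20, and 20 or more per 10000. The top group held 60, 94, 87 and 139 spots. Col3a1 rose at each step in all 4 slices, in WT slice 1 from 0.238 to 1.29, 10.7 and 32.6, and so did Col1a2, Lum, Dcn, Fn1, Postn, Acta2, Mmp12, Mmp13, Igf1, Cxcl12, Gpnmb, Lyz2, H2-Aa and Il7r.

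Reactive astrocyte genes did not follow that order. Summed over the 12 genes they were highest at 5 to under 20 in all 4 slices, at 57.7, 51.4, 52.4 and 41.6 per 10000, and lower at 20 or more, at 28.3, 26, 27.6 and 23.0. C3, Gfap and Ptgds had the same peak in all 4 slices. Cthrc1 was higher in the top group than at 5 to under 20 in 3 of 4 slices, with 0.166, 0.202, 0.127 and 0.201 in the top group. Snap25 and Slc17a7 fell at each step in all 4 slices. Plasma cell genes peaked at 5 to under 20 in both WT slices (20.1 and 32.5) and at 20 or more in both deleter slices (47.6 and 99.7).

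**Figure D4:**
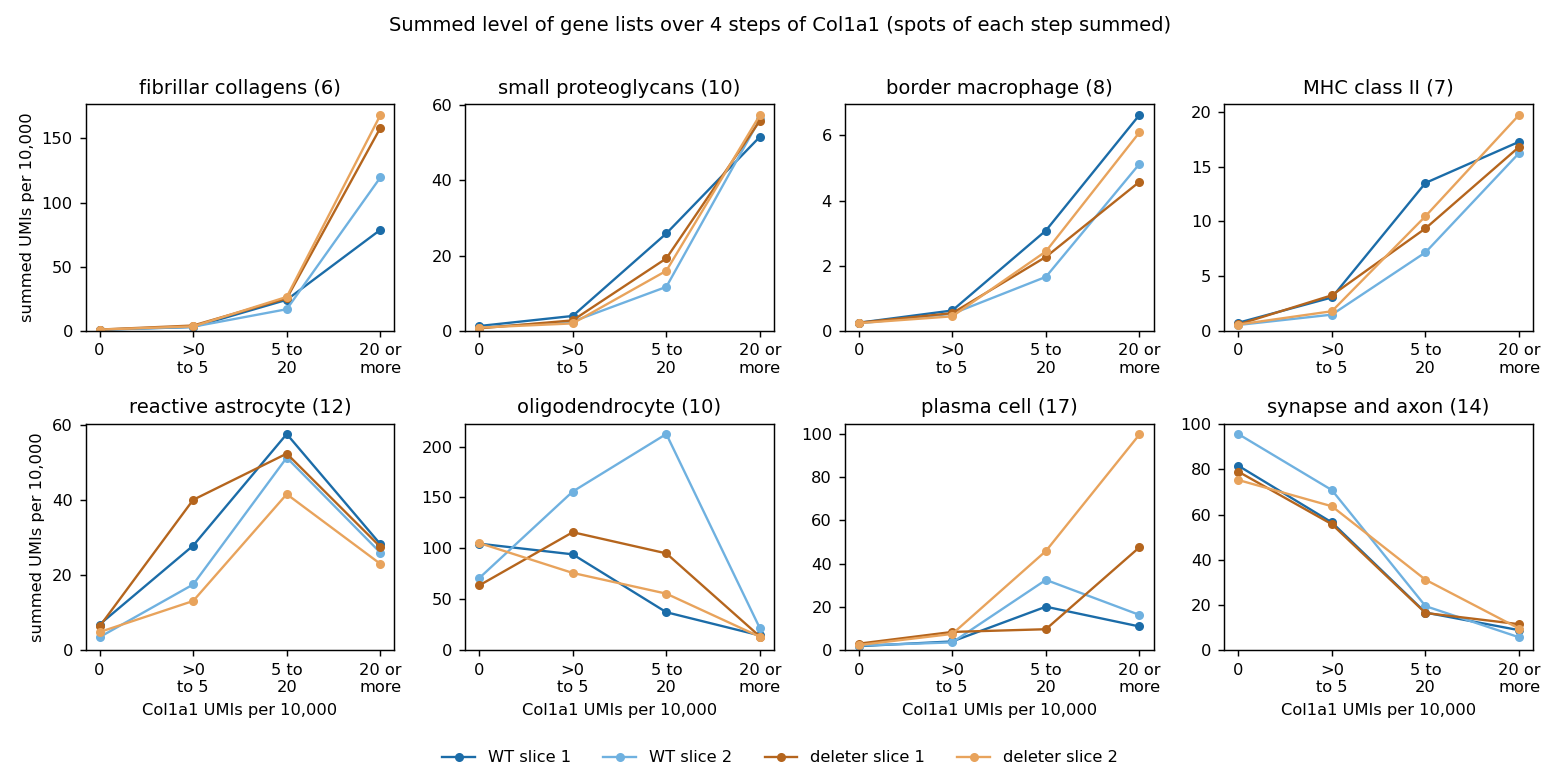
Summed UMIs per 10000 of 8 gene lists (number of genes in brackets) over 4 steps of Col1a1 per 10000, with 1 line per slice at 21 dpi. Collagens, proteoglycans, border macrophage and MHC class II genes rise to the last step, reactive astrocyte genes peak at 5 to under 20 (41.6 to 57.7), and plasma cell lines part between WT and deleter slices.

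The same classes in the 2 WT slices at 7 dpi, with 112 and 392 fibrotic spots, served to show where 21 dpi differed. The difference of the fibrotic change between 21 and 7 dpi passed for 446 of 14476 genes, 394 higher (2.72%) and 52 lower (0.359%) at 21 dpi. In slice 1 at 7 dpi 93.8% of fibrotic spots lay at the edge, with a median of 4923.5 UMIs. Without slice 2 at 7 dpi the counts were 125 and 3, without slice 1 at 7 dpi 177 and 8, and without WT slice 2 at 21 dpi 216 and 8. Both 7 dpi slices carried Xist and no Ddx3y UMI, unlike the WT slices at 21 dpi, so time, capture area and sex cannot be told apart.

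Most macrophage and reactive astrocyte genes had larger fibrotic changes at 21 dpi. Of 18 macrophage genes 16 passed in that direction (median difference 1.80), as had 5 of 6 scar-associated macrophage genes, 9 of 13 complement genes and 10 of 12 reactive astrocyte genes (2.02). Of the other astrocyte list 3 of 10 passed (median 0.68). Gpnmb was at 14.6 and 16.7 in fibrotic spots at 7 dpi and 19.3 and 13.5 at 21 dpi, while its Col1a1-free level went from 2.20 and 5.05 down to 0.449 and 0.312, a difference of 3.17 ± 0.30 (adjusted p = 0.0014). Its fibrotic levels overlapped between the time points and its Col1a1-free levels did not. Spp1 had 140 and 140 in fibrotic spots at 7 dpi and 28.0 and 29.2 at 21 dpi, yet its change was larger at 21 dpi by 1.72 ± 0.24, as the Col1a1-free level went from 9.50 and 12.9 to 0.778 and 0.566.

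Other genes differed in the fibrotic spots themselves. Lcn2 was at 0.118 and 0.234 in fibrotic spots at 7 dpi and 9.41 and 6.87 at 21 dpi, and its change was -1.27 ± 0.49 at 7 dpi and 4.25 ± 0.47 at 21 dpi (difference 5.48 ± 0.62, adjusted p = 0.0028). Without slice 2 at 7 dpi the adjusted p was 0.051. C3 went from 0.201 and 0.248 to 8.02 and 5.10 (difference 3.85 ± 0.60, adjusted p = 0.0092). Among genes with at least 100 UMIs Chil1 had the largest positive difference, 5.71 ± 0.48, ahead of Lcn2, Tgm1, C530044C16Rik and Ptx3. Mmp12 differed by 4.84 ± 0.69. The calls of Chil1, Tgm1, Gpnmb, Lyz2, Gfap, Aqp4 and Igfbp5 were kept without any 1 slice, while that of C3 was lost without either slice at 7 dpi, that of Spp1 without slice 2 at 7 dpi and that of Mmp12 without WT slice 1 at 21 dpi. With spots thinned to 1000 UMIs the call of Chil1 was lost (3.93, edgeR adjusted p = 0.14).

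A few fibroblast genes were stronger at 7 dpi, but their lists did not move together. Of the 5 myofibroblast markers, Cthrc1 passed with a smaller change at 21 dpi and Fn1 with a larger one (1.19, edgeR adjusted p = 0.0063). The call of Fn1 was lost without either slice at 7 dpi. Of 16 elastic fibre genes 3 had a larger change at 21 dpi and 1 a smaller one. Among 12 matricellular genes the counts were also 3 and 1. Cthrc1 was at 1.16 and 1.09 in fibrotic spots at 7 dpi and 0.219 and 0.175 at 21 dpi, with Col1a1-free levels of 0.110 to 0.187 and 0.118 to 0.121, a difference of -2.25 ± 0.31 (adjusted p = 0.0058). Fibulin 2 (Fbln2), an elastic fibre protein, went from 1.13 and 1.09 to 0.197 and 0.158 (-2.37 ± 0.31). Ccn4, a matricellular Wnt target, went from 0.189 and 0.244 to 0.0313 and 0.0631 (-2.92 ± 0.62). The calls of Cthrc1 and Fbln2 were kept without any 1 slice, and that of Ccn4 was lost without each of the 4 WT slices in turn. With spots thinned to 1000 UMIs, Cthrc1 (-3.00, edgeR adjusted p = 0.31) and Fbln2 (-2.43, adjusted p = 0.52) kept the direction and lost the call. Aldh1a3, an enzyme of retinoic acid synthesis, had levels of 0.260 and 0.214 in the earlier and 0.00894 and 0.00701 in the later fibrotic spots, and Oprk1, Dmp1 and Pld5 completed the 5 largest decreases, between -5.74 and -2.92. The calls of Oprk1 and Dmp1 were also lost without each of the 4 WT slices in turn, that of Aldh1a3 without all but WT slice 1 at 21 dpi, and that of Pld5 without slice 2 at either time.

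For collagen fibril and meningeal genes the difference between time points did not pass. None of 6 fibrillar collagens, 9 small proteoglycans, 15 meningeal genes or 14 plasma cell genes passed in edgeR in either direction. Only 2.72% and 0.359% of all tested genes passed higher and lower, so the absence of calls does not set these short lists apart. Their median differences were 0.46, 1.02, 0.11 and 2.32. Summed fibrotic levels rose from 12.6 and 18.4 at 7 dpi to 34.9 and 31.8 at 21 dpi for proteoglycans. They rose from 19.6 and 24.8 to 105 and 63.4 for meningeal and from 1.54 and 2.06 to 16.9 and 25.2 for plasma cell genes. Those of fibrillar collagens overlapped. The meningeal sum at 21 dpi was mostly Ptgds. In the WT slices, at the Col1a1 step of 5 to under 20, Ptgds was at 101 and 79.6 and the meningeal sum at 110 and 84.7. At 20 or more, Ptgds was at 81.1 and 29.0 and the sum at 95.7 and 37.5. The rise of that sum is therefore no measure of the other meningeal genes. Col3a1 changed by 6.13 ± 0.19 at 7 dpi and 6.57 ± 0.18 at 21 dpi, and the difference of 0.42 ± 0.23 did not pass (adjusted p = 0.38). Postn was at 1.85 and 2.44 in fibrotic spots at 7 dpi and 0.787 and 0.789 at 21 dpi, and its difference of -1.20 ± 0.51 did not pass either (adjusted p = 0.25). Jchain had a difference of 6.97 ± 2.45, with 0.0236 and 0 in fibrotic spots at 7 dpi, and did not pass (adjusted p = 0.17). It did pass under DESeq2 (7.23, adjusted p = 0.028), with no filter (7.01, adjusted p = 2.8e-10) and without deleter slice 1 (6.97, adjusted p = 0.022) or deleter slice 2 (6.98, adjusted p = 0.031).

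**Figure D5:**
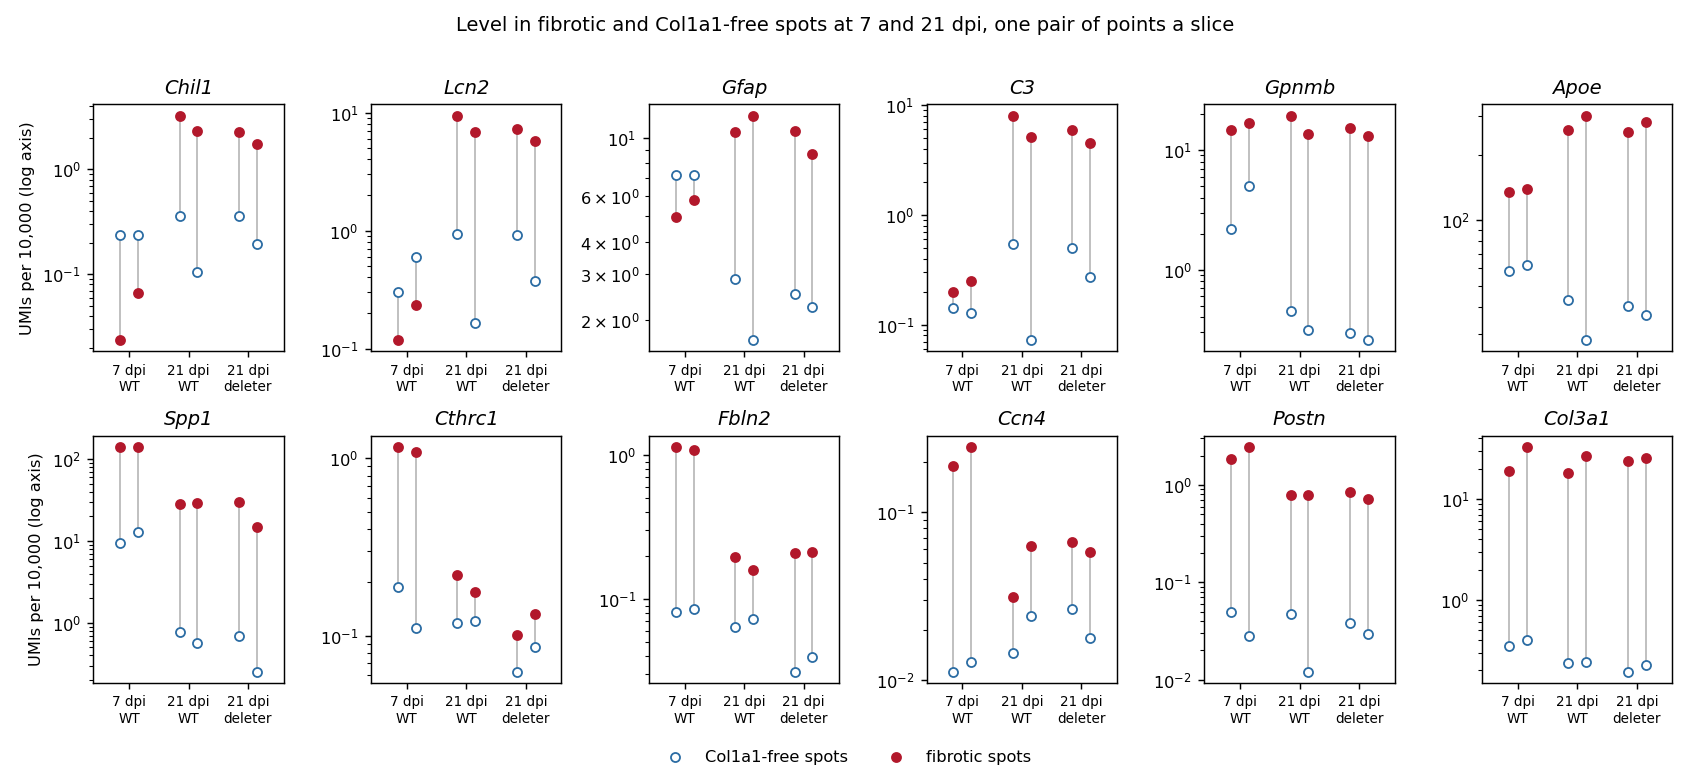
UMIs per 10000 (log axis scaled to each gene) in fibrotic spots (filled) and Col1a1-free spots (open), with 1 joined pair per slice at 7 dpi, 21 dpi WT and 21 dpi deleter. The pairs of Lcn2 and Gfap turn over between 7 and 21 dpi, those of Gpnmb and Spp1 lengthen as the open points drop, and those of Cthrc1 and Fbln2 shorten.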

How the data were processed

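UMI counts per gene and spot of the Visium areas were used as deposited by the authors, who aligned reads to mm10 with Space Ranger 2.0.0 per the labels and did not normalize the counts. Connected spots over tissue gave 2 slices per area, and slice numbers carry no meaning beyond names. Spots with at least 1000 UMIs were summed per slice and class, so n is 4 slices (2 per genotype) and the spread between slices is the error. The WT and deleter changes came from 1 fit of all 4 slices. The difference between 7 and 21 dpi came from 1 fit that also held the deleter slices. In both fits the estimate of the spread was shared over groups, so it is not that of the named slices alone. Sums were tested with edgeR 4.0.16 (TMM, filterByExpr, quasi-likelihood F test, Benjamini-Hochberg, threshold 0.05) with the slice as a block and without Col1a1. Values after ± are standard errors of log2 fold changes, worked out as the size of the change divided by the square root of its F statistic. DESeq2 1.42.0, other thresholds, thinning to 1000 UMIs per spot and leaving out each slice were alternatives. On counts simulated with known changes, over 13576 genes, the main step recovered 56% of 2-fold and 100% of 4-fold changes with 3.70% of calls false. For the difference between 7 and 21 dpi it recovered 3% and 58%, with 3.17% false, over 14032 genes. The simulation used 1 fixed spread, a dispersion of 0.05. This was larger than the common dispersion that edgeR estimated, 0.0157 in the main comparison and 0.0156 for 7 against 21 dpi. It also changed only a small share of genes, whereas 35.3% and 34.0% of genes were called in the main comparison. Scaling with so many changed genes was not tested, and these shares are not error rates of the calls given here. Genes were named by size (12 each way in the main comparison and 5 each way for position and time, with at least 100 UMIs) or as members of 42 lists of 432 genes. Members, lists and tests were chosen with earlier results of these data known. Doublets are not defined for spots. Ratios of genes with 3 or fewer Col1a1-free UMIs carry exact 95% intervals that cover counting error only. Such genes passed the filter through their fibrotic sums, so higher calls among them are partly built in. Image files were not used. Promoter letters are from RefSeq on GRCm38.p6.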

Additional observations from a re-analysis of the deposited data

Results flagged for a closer look

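In 131 results each measured in 4 slices, a slice far from the other 3 was looked for, and 4 were found, where chance flags about 1 in 20 such groups. The fibrotic change of Gfap was 2.95 in WT slice 2 and 1.93 to 2.07 in the other slices (log2). That of Fos, an immediate early gene, was -0.16 in deleter slice 1 and -0.72 to -0.69 in the others. Between interior and edge, Ccl2 differed by 1.17 in WT slice 2 and by 2.54 to 2.67 elsewhere, and Trem2, a lipid receptor of phagocytes, by 2.10 in deleter slice 2 and by 0.76 to 0.93 elsewhere.

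For 29 named genes the fibrotic change itself differed between 21 and 7 dpi in WT slices (log2 difference, 21 minus 7 dpi, edgeR adjusted p under 0.05). Among glial and acute-phase genes these were Chil1 (5.71), Lcn2 (5.48), Tgm1 (5.48), C530044C16Rik (5.17), Ptx3 (4.96), C3 (3.85), Gfap (2.75) and Aqp4 (2.42). Among phagocyte, protease and signal genes they were Mmp12 (4.84), Cxcl10 (3.65), Gpnmb (3.17), Lyz2 (2.48), Igfbp5 (2.30), Cxcl16 (2.26), Tgfb1 (2.01), Mmp13 (1.96), Trem2 (1.93), Apoe (1.79), Sema3c (1.74) and Spp1 (1.72). The myofibroblast marker Fn1 was also positive (1.19), while the summed level of the 5 myofibroblast markers in fibrotic spots was lower at 21 than at 7 dpi. The difference was negative for Aldh1a3 (-5.74), Oprk1 (-5.59), Dmp1 (-4.25), Pld5 (-3.83), Ccn4 (-2.92), Fbln2 (-2.37), Cthrc1 (-2.25) and Slc17a7 (-1.15). The calls of Chil1, Tgm1, Gfap, Aqp4, Gpnmb, Lyz2, Igfbp5, Fbln2 and Cthrc1 were kept without any 1 slice, and each of the others was lost without at least 1 slice. With spots thinned to 1000 UMIs the calls of Chil1, Fbln2, Cthrc1, Cxcl10, Cxcl16, Tgfb1, Mmp13 and Slc17a7 were lost. Oprk1, Dmp1, Ccn4 and Slc17a7 lost the call without each of the 4 WT slices in turn, and C530044C16Rik, Aldh1a3, Mmp13, Tgfb1 and Sema3c without 3 of them. Mmp13 also did not pass under DESeq2 (adjusted p = 0.052). Each time point is 1 capture area with 2 animals.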

How the results depend on the processing

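With each spot thinned to 1000 UMIs, fewer genes could be tested, and 1728 were higher and 1714 lower in fibrotic spots over all slices, 1228 and 1077 in WT slices, 1254 and 1117 in deleter slices, 64 and 7 for the difference between 21 and 7 dpi, and 126 and 102 for interior against edge. DESeq2 called 2469 lower genes in deleter slices, and 385 higher and 371 lower genes in the interior. For time, 353 of the higher and 45 of the lower genes could be tested when thinned, and 61 and 1 of them were called again. The cause of the lower counts was not tested.

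For the difference between genotypes, 1 gene was higher in WT slices with a threshold of 10 Col1a1 UMIs per 10000 and 1 under DESeq2, and 2 were higher and 1 lower without a filter on low counts. For the difference between time points, all 4 slices at 21 dpi gave 620 higher and 83 lower genes, and no filter gave 1061 and 411. Leaving out 1 slice at a time gave 125 to 452 higher and 3 to 161 lower genes for time, 2301 to 4021 lower genes in deleter slices, and 565 to 768 higher and 563 to 631 lower genes in the interior. The lowest counts came without slice 2 at 7 dpi, without deleter slice 1 and, in the interior, without WT slice 1. Over all slices the counts stayed between 4278 and 4705 higher and 4200 and 4618 lower genes.

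Single genes turned sign as follows. Over all slices Ighm was at 0.82 against Col1a1-free spots within 5 steps, Igf1r at 0.029 when thinned, and P2ry12 at -0.18 and Foxj1 at -0.051 with a threshold of 10. In WT slices Ighg2c was at -0.091 with that threshold and at -1.91 to 2.40 without 1 slice. Esr1 in deleter slices was at -0.50 when thinned. The genotype difference of Cthrc1 was -0.036 with a threshold of 10 and -0.029 to 0.33 without 1 slice. Between time points Postn was at -1.92 to 0.25 without 1 slice and Acta2 at 0.18 when thinned, and Col3a1 was at 0.0093 in the interior when thinned. Of the other values of named genes, 1303 kept sign and call over all slices and 30 lost the call. Between time points 261 kept both and 54 lost the call. No paired analysis was possible between groups because each group is 1 capture area and slice numbers are only names. Within slices the slice itself was the block, and without it 4754 genes were higher and 4630 lower.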
